A study of Mus musculus with 15 samples.

Results

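RNA sequencing compared GL261 cells, a mouse glioma cell line, that had been taken up in a hydrogel with untreated cells of the same line. The 6 libraries compared are the 3 named D-gel@NP and the 3 named non-SP, of 15 libraries in the series, and each of the 34259 genes of the count table was considered. The D-gel@NP cells carried the label Hoechst-CD133+, stayed in a lyophilised chiral hydrogel on ice for 20 min, and were then kept with a cytokine cocktail until day 6. The non-SP cells were GL261 cells from outside the side population and had no hydrogel, no ice step and no cytokines up to the same day. Every group is wild type, grew in DMEM with serum, received fresh medium on days 2 and 4 and carries 1 batch label. The other groups of 3 libraries, L-gel@GSNP, PBS and D-gel@GSNP, also held Hoechst-CD133+ cells with cytokines. L-gel@GSNP and D-gel@GSNP cells were in hydrogels, and PBS cells had buffer only. D and L name the chiral form of the gel, NP and GSNP are code names of its load, and the makeup of the cocktail is not named. The sorted fraction, the gel, its load, the ice step and the cytokines changed together between D-gel@NP and non-SP, so their parts cannot be told apart in this comparison. Whether the 3 libraries of a group came from separate cultures is not stated, and p-values then measure only the spread between these libraries, which may be technical.

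Side population cells keep little of the dye Hoechst because ABC transporters export it, and low dye together with the surface protein CD133 (gene Prom1) is used to enrich stem-like tumour cells. Cells that lack amino acids, or whose ER or mitochondria are under stress, phosphorylate the translation factor eIF2. That slows protein synthesis and lets the transcription factor ATF4 be made, which raises genes for amino acid synthesis, uptake and tRNA charging. This integrated stress response is a well studied pathway of tumour cells.

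The total was 16.6, 38.7 and 40.0 M counts in the D-gel@NP libraries, against 41.8, 39.3 and 41.6 M in the non-SP libraries, and up to 98.1 M elsewhere in the series. Levels are given as CPM, counts divided by library size (in M counts) after TMM scaling between libraries. Mitochondrially encoded genes took 4.467% to 4.84% of counts in D-gel@NP and 2.817% to 2.922% in non-SP. On the first principal component of log2 CPM, which held 50.4% of the variance over the 15 libraries, D-gel@NP lay at -50.83 to -48.72 and non-SP at 62.87 to 63.95. L-gel@GSNP lay at -58.9 to -57.16, PBS at -21.82 to -18.4 and D-gel@GSNP at 61.76 to 67.87. Distances (Euclidean, of log2 CPM) between D-gel@NP libraries, of which number 1 is the shallowest of the series, ran from 68.5 to 93.4, against 67.5 to 69.4 between non-SP libraries. The distance between a D-gel@NP and a non-SP library was 130.6 to 142.7.

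The labels could be checked only in part. Prom1 had 2, 4 and 4 counts in the D-gel@NP libraries and 0, 0 and 2 in the non-SP libraries, too few to test. The 4 counts came from libraries of 38.7 and 40.0 M, so Prom1 RNA was near the floor in D-gel@NP. The CD133 label, of a surface protein, was not borne out by RNA and could not be checked by it. Abcg2, the pump most tied to the side population, had 55.1, 49.4 and 53.2 CPM in the D-gel@NP libraries, against 48.9, 48 and 47.1 CPM in the non-SP libraries. The difference of 0.13 on the log2 scale missed the threshold in edgeR's quasi-likelihood test (95% interval 0.01 to 0.25, adjusted p = 0.058) and passed it under several alternative settings, among them thinning of each library to the shallowest (adjusted p = 0.0443). The related pump gene Abcb1a had 45.1, 39.6 and 44.8 CPM in the D-gel@NP libraries, against 17.1, 18.2 and 18.8 CPM in the non-SP libraries. It was 2.39-fold higher without overlap (edgeR adjusted p = 1.01e-11). The 12 pump genes listed summed to 1143 to 1209 CPM in D-gel@NP and 894.9 to 902.2 CPM in non-SP. Among groups with the same label, the sum was 1308 to 1337 CPM in PBS and 1011 to 1046 CPM in L-gel@GSNP. In D-gel@GSNP it was only 923.2 to 932.6 CPM, so pump levels differed between groups that share the label. Of the glial identity genes, Gfap averaged 0.213 ± 0.134 CPM in D-gel@NP and 0.105 ± 0.0687 CPM in non-SP (SD, n = 3 each; edgeR adjusted p = 0.198), Olig2 had no count in either group, and the neuronal tubulin gene Tubb3 had 8 counts in D-gel@NP and 0 in non-SP.

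By edgeR's quasi-likelihood test with Benjamini-Hochberg adjustment, 5098 of 17497 tested genes were higher in D-gel@NP than in non-SP (29.1%) and 4725 were lower (27%), at an adjusted p under 0.05. The rises were larger than the falls. Of the genes called, 1968 were at least 2-fold higher (11.2% of those tested) and 669 at least 2-fold lower (3.82%). At least 4-fold, the counts were 865 and 111, and at least 8-fold 412 and 35. Together 56.1% of tested genes were called. Counts of gene list members against non-SP below are to be read beside the 29.1% higher and 27% lower. For 62.1% of tested genes the D-gel@NP and non-SP libraries had no overlap, and the median log2 difference over all tested genes was 0.04.

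**Figure D1:**
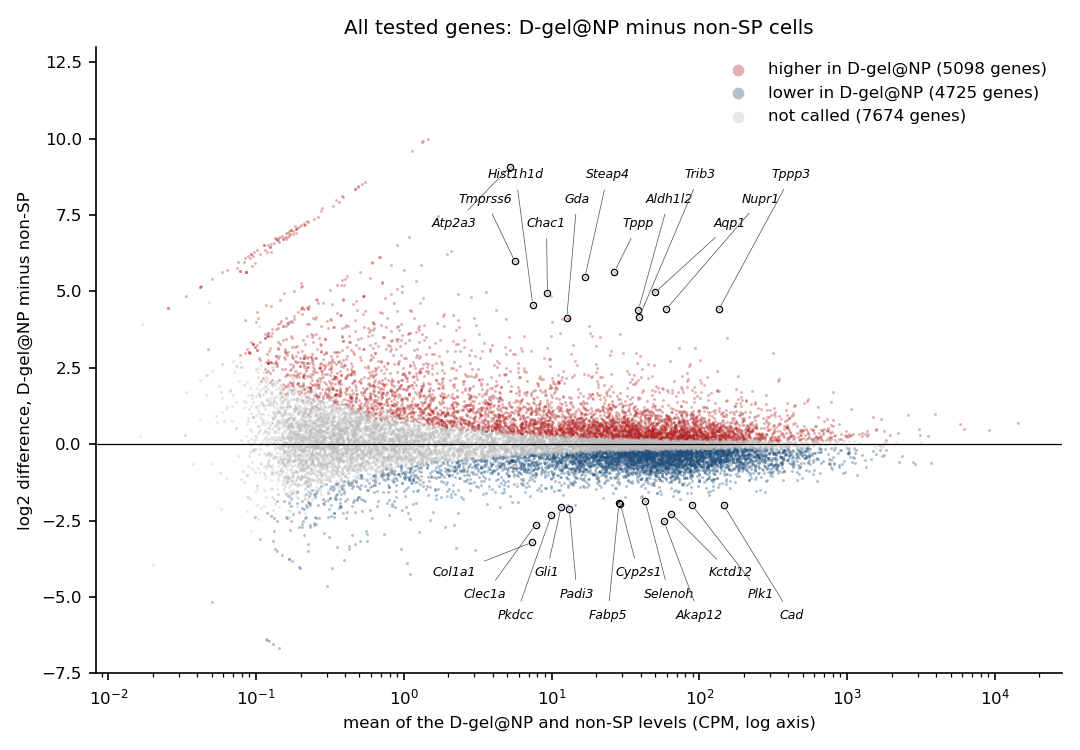
Log2 difference of D-gel@NP minus non-SP (vertical axis) against the mean of both group levels in CPM (horizontal log axis) for the 17497 tested genes, coloured by call at an edgeR adjusted p under 0.05, with the 12 largest rises and 12 largest falls among genes of at least 10 CPM named. Large rises outnumber large falls, and the streak at the upper left holds genes without a count in non-SP (93 tested genes), whose fitted differences depend on a prior count.

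The largest rises among called genes of at least 10 CPM without overlap joined stress genes with genes of calcium, iron and water handling. Atp2a3, which encodes a calcium pump of the ER, had 11.7, 8.62 and 10.8 CPM in the D-gel@NP libraries, against 0, 0.0512 and 0 CPM in the non-SP libraries. That is 967 counts over the D-gel@NP libraries and 2 over the non-SP libraries, a ratio of 613 (95% counting interval 169 to 5070). Tmprss6, a membrane protease that lowers hepcidin in the liver, had 12.3, 9.73 and 11.3 CPM in the D-gel@NP libraries, against 0.264, 0.154 and 0.0969 CPM in the non-SP libraries, and the groups were far apart. The metalloreductase gene Steap4 had 31.9, 33.4 and 33.2 CPM in the D-gel@NP libraries, against 0.503, 1.02 and 0.702 CPM in the non-SP libraries, 44.4-fold higher. Aqp1, a water channel, had 82.3, 94.8 and 116 CPM in the D-gel@NP libraries, against 2.68, 3.07 and 3.56 CPM in the non-SP libraries, 31.6-fold higher. The spread between libraries of a group was small beside each of these differences (edgeR adjusted p = 1.36e-13 for Tmprss6, 1.54e-12 for Steap4 and 5.67e-17 for Aqp1).

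The tubulin polymerisation genes Tppp and Tppp3 rose together. Tppp had 47.8, 53.5 and 55.2 CPM in the D-gel@NP libraries, against 1.32, 0.871 and 0.92 CPM in the non-SP libraries, and Tppp3 had 271, 239 and 265 CPM in the D-gel@NP libraries, against 12.1, 11.9 and 12.3 CPM in the non-SP libraries. The log2 differences were 5.65 and 4.42 (edgeR adjusted p = 2.21e-19 and 5.06e-21). Both also stood high in the PBS libraries, at 48.9 and 295 CPM on average, so that D-gel@NP differed little from PBS there (log2 difference 0.10 and -0.19, edgeR adjusted p = 0.406 and 0.022). Hist1h1d, a linker histone gene, had 13.5, 15 and 14.3 CPM in D-gel@NP, against 0.767, 0.41 and 0.63 CPM in non-SP, and Gda, which encodes guanine deaminase, had 22.5, 22.4 and 26.7 CPM in D-gel@NP, against 1.27, 1.49 and 1.36 CPM in non-SP. Chac1, Nupr1, Aldh1l2 and Trib3 complete the 12 and are described with the stress genes.

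The largest falls were smaller and touched matrix, signalling and growth genes. Col1a1, a chain of type I collagen, had 1.43, 1.6 and 1.3 CPM in the D-gel@NP libraries, against 12.7, 12.5 and 14.9 CPM in the non-SP libraries, 9.24-fold lower (edgeR adjusted p = 2.81e-07). Akap12, a scaffold of protein kinase A, had 15.9, 19.7 and 15.6 CPM in the D-gel@NP libraries, against 101, 94.8 and 97.7 CPM in the non-SP libraries. Gli1, transcription factor and target of hedgehog signalling, had 3.93, 5.35 and 4.05 CPM in the D-gel@NP libraries, against 18.2, 21.2 and 16.8 CPM in the non-SP libraries. The D-gel@NP and non-SP libraries did not overlap for these genes, which was a condition for naming them among the largest falls. Cad, the enzyme that starts pyrimidine synthesis, had 58.1, 63.4 and 54.1 CPM in the D-gel@NP libraries, against 231, 226 and 240.3 CPM in the non-SP libraries, 3.97-fold lower (edgeR adjusted p = 2.91e-15). The other large falls were those of the lectin receptor gene Clec1a (6.24-fold), the secreted kinase gene Pkdcc (5.02-fold), Kctd12 (4.82-fold), Padi3 (4.33-fold), Plk1 (3.94-fold), Cyp2s1 (3.85-fold), Fabp5 (3.8-fold) and the selenoprotein gene Selenoh (3.65-fold). Pkdcc was uneven within D-gel@NP, at 1.43, 4.21 and 3.67 CPM, against 16.1, 16.7 and 17.5 CPM in non-SP.

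Genes of the integrated stress response were higher without exception among those tested. Of 16 genes on the list 14 could be tested. All 14 rose and none fell, with a median log2 difference of 1.83, beside 0.04 over all tested genes. Trib3, a pseudokinase induced by ATF4 and CHOP, had 89.2, 57.6 and 75.1 CPM in the D-gel@NP libraries, against 4.19, 3.58 and 4.63 CPM in the non-SP libraries, 17.8-fold higher (edgeR adjusted p = 1.02e-14). Chac1, which degrades glutathione, had 21.6, 15.4 and 17.3 CPM in the D-gel@NP libraries, against 0.216, 1.23 and 0.339 CPM in the non-SP libraries, and Nupr1, a stress-induced chromatin protein, had 111, 109.6 and 121 CPM in the D-gel@NP libraries, against 4.77, 5.33 and 5.84 CPM in the non-SP libraries. Every D-gel@NP library was far above every non-SP library for these genes, and non-overlap was a condition for naming them among the largest rises. Asns, which makes asparagine, had 305, 272 and 306 CPM in the D-gel@NP libraries, against 89.4, 92.3 and 90.4 CPM in the non-SP libraries, 3.24-fold higher, and Atf4 itself had 365, 309 and 343 CPM in the D-gel@NP libraries, against 137, 135 and 137 CPM in the non-SP libraries, 2.48-fold higher. The CHOP gene Ddit3 was 3.08-fold higher at 35.5 ± 4.41 CPM in D-gel@NP and 11.5 ± 0.319 CPM in non-SP (SD, n = 3 each). Atf5 (3.48-fold), Atf3 (6.24-fold), Vldlr (3.65-fold), Sesn2 (4.07-fold), Ddit4 (4.31-fold) and Ppp1r15a, the phosphatase subunit that reverses eIF2 phosphorylation (3.46-fold), rose as well.

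The promoter of Nupr1 is shown because it was the only promoter of the 13 list members with an entry that holds the ATF4 element searched, TGATGCAAT on either strand. It spans chr7:126625421-126625720 of GRCm38.p6 on the minus strand, from 250 bases before the RefSeq transcription start to 50 after it. The capitals mark the element, written on the opposite strand, with its first base at position -111 from the start.
Nupr1: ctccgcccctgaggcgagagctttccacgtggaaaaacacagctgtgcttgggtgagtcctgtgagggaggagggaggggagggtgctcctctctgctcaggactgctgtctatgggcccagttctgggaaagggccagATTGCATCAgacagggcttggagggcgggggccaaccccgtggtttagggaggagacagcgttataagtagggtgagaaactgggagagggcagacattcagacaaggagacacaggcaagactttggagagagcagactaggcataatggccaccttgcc
The element is in 0.192% of the 32851 mouse promoters of that table and in 0.17% of the 11154 tested genes that have one. The 19 tested genes with it had a median log2 difference of 0.68, against 0.02 for genes without it. A match is a description of the sequence and not evidence of binding.

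Enzymes of serine, one-carbon and proline synthesis rose in part, beside 29.1% higher and 27% lower over all tested genes. Of 15 tested members 8 rose and 2 fell, with a median log2 difference of 0.56. Aldh1l2, which oxidises formyl-tetrahydrofolate in mitochondria, had 76.9, 69.2 and 75.4 CPM in the D-gel@NP libraries, against 3.81, 3.43 and 3.2 CPM in the non-SP libraries, 21.2-fold higher (edgeR adjusted p = 1.45e-18). Cth, which makes cysteine from cystathionine, had 35.5, 26.8 and 37.9 CPM in the D-gel@NP libraries, against 2.78, 2.59 and 2.57 CPM in the non-SP libraries, and the mitochondrial folate enzyme gene Mthfd2 had 225, 190.1 and 209 CPM in the D-gel@NP libraries, against 60.7, 63.7 and 61 CPM in the non-SP libraries. The groups did not overlap for these genes, which for Aldh1l2 was a condition for its place among the largest rises. Psph, the last enzyme of serine synthesis, was 3.39-fold higher and Aldh18a1, the entry to proline synthesis, 2.6-fold higher. The cytosolic folate enzymes went the other way, since Mthfd1 was 1.7-fold lower and Shmt1 1.14-fold lower, while Mat2a had 628 ± 16.7 CPM in D-gel@NP and 631 ± 3.93 CPM in non-SP (SD, n = 3 each; edgeR adjusted p = 0.929). Without 1 library, other than non-SP 2, the count of falls on this list was 1.

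Amino acid transporters and aminoacyl-tRNA synthetases were mostly higher too. Of 14 transporters 10 rose and 2 fell, with a median log2 difference of 0.58, and 1 fell without D-gel@NP 1, D-gel@NP 2 or non-SP 1. The glycine transporter gene Slc6a9 had 25.3, 26.1 and 23.8 CPM in the D-gel@NP libraries, against 2.71, 2.64 and 2.59 CPM in the non-SP libraries, 9.48-fold higher (edgeR adjusted p = 3.1e-15). Slc38a2, a carrier of small neutral amino acids, had 1862, 1956 and 2003 CPM in the D-gel@NP libraries, against 1056, 1029 and 1079 CPM in the non-SP libraries. The cystine carrier gene Slc7a11 was 1.95-fold higher, whereas the leucine carrier gene Slc7a5 was 1.2-fold lower, at 96.8 ± 8.54 CPM in D-gel@NP and 116 ± 6 CPM in non-SP (SD, n = 3 each). Of 20 cytosolic synthetases 15 rose and 4 fell, with a median log2 difference of 0.35. Nars, the asparagine enzyme, had 544, 497 and 541 CPM in the D-gel@NP libraries, against 246, 254 and 235 CPM in the non-SP libraries, and Cars, the cysteine enzyme, was 2.54-fold higher. The valine enzyme Vars fell to 129, 133 and 135 CPM in D-gel@NP, against 298, 288 and 309 CPM in non-SP (edgeR adjusted p = 1.06e-12), and Hars, Kars and Farsa fell too.

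**Figure D2:**
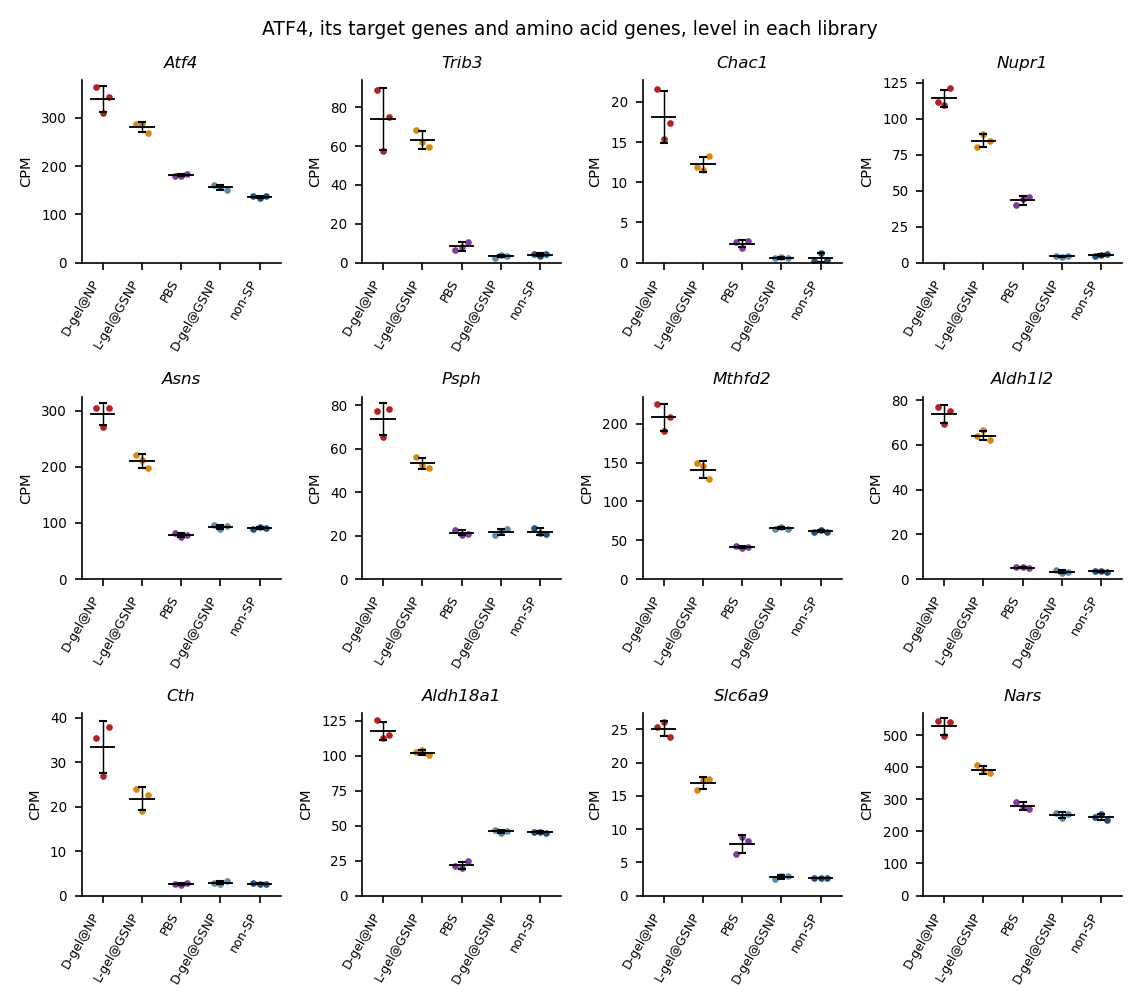
Level in CPM (vertical axes, from 0) of 12 genes of the stress response and of amino acid metabolism in each library, by group along the horizontal axes. Points are libraries, bars the mean ± SD (n = 3), and in each panel the D-gel@NP libraries lie above the non-SP libraries, with the D-gel@GSNP libraries near the non-SP level.

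Genes of mitosis and DNA replication were lower. Of 25 tested genes of G2 and mitosis 24 fell and none rose, with a median log2 difference of -0.99, and of 30 replication genes 27 fell and none rose, with a median of -0.66. Plk1, a kinase of mitotic entry and division, had 37.3, 35.6 and 35.1 CPM in the D-gel@NP libraries, against 142, 140.2 and 143 CPM in the non-SP libraries, 3.94-fold lower (edgeR adjusted p = 1.65e-15). Aurka, a kinase of the spindle poles, had 60.1, 60.3 and 59.4 CPM in the D-gel@NP libraries, against 161, 164 and 164 CPM in the non-SP libraries, and the proliferation marker gene Mki67 had 284, 286 and 277 CPM in the D-gel@NP libraries, against 615, 649 and 652 CPM in the non-SP libraries. No D-gel@NP library reached the lowest non-SP library for these genes, which for Plk1 was a condition for its place among the largest falls. Cenpa, the centromeric histone, was 2.58-fold lower and Ube2c, which marks cyclins for destruction, 2.14-fold lower. Nusap1 did not pass, at 81.4 ± 2.69 CPM in D-gel@NP and 85.1 ± 0.732 CPM in non-SP (SD, n = 3 each; edgeR adjusted p = 0.476). In bulk RNA a smaller share of dividing cells and less of these transcripts per cell cannot be told apart.

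Among replication genes, Rrm2, the regulated subunit of ribonucleotide reductase, had 206, 197 and 197 CPM in the D-gel@NP libraries, against 417, 411 and 417 CPM in the non-SP libraries. Rfc5, part of the clamp loader, was 2.62-fold lower, Tk1, which salvages thymidine, 2.33-fold lower and Pold1, the catalytic subunit of DNA polymerase delta, 2-fold lower. Mcm7, Pcna and Pola1 did not pass, with log2 differences of -0.01, -0.14 and -0.18. Of 24 DNA repair genes 17 fell and none rose, with a median log2 difference of -0.39, and 1 rose without D-gel@NP 1. Parp1, a sensor of strand breaks, had 213, 230.0 and 203 CPM in the D-gel@NP libraries, against 381, 382 and 380.5 CPM in the non-SP libraries, 1.77-fold lower, and the nuclease gene Mre11a was 1.79-fold lower (edgeR adjusted p = 1.88e-11).

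Promoters of mitosis genes often hold the cell cycle homology region, TTTGAA, which the DREAM complex reads to repress them in resting cells. It was found on either strand in 14 of the 20 tested list members with a promoter (70%), beside 15.4% of all tested genes with one and 17.9% of all promoters. The promoters of Plk1, Cenpa and Ube2c, genes of the list with low adjusted p, are shown with the element in capitals. Its first base lies at position 31 from the start in Plk1 and 17 in Cenpa, and at -29 on the opposite strand in Ube2c. Positions are chr7:122159185-122159484 (plus strand), chr5:30666636-30666935 (plus strand) and chr2:164769679-164769978 (plus strand) of GRCm38.p6, from RefSeq.
Plk1: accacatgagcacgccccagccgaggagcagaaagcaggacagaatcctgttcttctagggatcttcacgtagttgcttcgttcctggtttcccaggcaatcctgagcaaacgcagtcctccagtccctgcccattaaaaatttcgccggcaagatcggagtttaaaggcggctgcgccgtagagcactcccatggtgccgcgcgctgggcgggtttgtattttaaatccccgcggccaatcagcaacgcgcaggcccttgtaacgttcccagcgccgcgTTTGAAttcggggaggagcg
Cenpa: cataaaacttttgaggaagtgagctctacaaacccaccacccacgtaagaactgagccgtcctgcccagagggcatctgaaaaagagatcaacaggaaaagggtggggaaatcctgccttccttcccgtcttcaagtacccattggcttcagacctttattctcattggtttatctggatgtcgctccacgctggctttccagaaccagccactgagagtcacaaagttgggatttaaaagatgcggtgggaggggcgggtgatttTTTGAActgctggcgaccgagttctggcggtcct
Ube2c: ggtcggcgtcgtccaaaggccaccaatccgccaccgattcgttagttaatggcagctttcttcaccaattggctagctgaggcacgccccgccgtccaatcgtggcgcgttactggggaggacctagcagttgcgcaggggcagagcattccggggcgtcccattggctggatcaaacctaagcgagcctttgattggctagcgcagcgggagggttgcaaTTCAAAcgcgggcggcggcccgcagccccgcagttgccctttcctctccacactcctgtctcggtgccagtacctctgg
Over all 11154 tested genes with a promoter, genes with TTTGAA had a median log2 difference of 0.04 and those without it 0.02, nearly the same. The CCAAT box was in 17 of the 20 mitosis genes and in 43.1% of tested genes. The E2F letters TTTCGCGC or TTTGGCGC were in 8 of 24 replication genes (33.3%) and in 1.64% of tested genes, and the 183 tested genes with them had a median log2 difference of -0.19. Mcm7 and Pola1, which did not pass, are among those 8 replication genes.

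Targets of p53, the tumour suppressor that halts damaged cells, were higher. Of 26 tested targets 22 rose and 1 fell, with a median log2 difference of 0.97. Trp53inp1, a nuclear partner of p53 in stress, had 514, 594 and 562 CPM in the D-gel@NP libraries, against 66.3, 72.4 and 73.8 CPM in the non-SP libraries, 7.86-fold higher (edgeR adjusted p = 2.84e-19). Cdkn1a, the gene of the cyclin kinase inhibitor p21, had 353, 365 and 320.3 CPM in the D-gel@NP libraries, against 133, 132 and 131 CPM in the non-SP libraries, and Btg2, an antiproliferative gene, had 119.7, 139.9 and 115 CPM in the D-gel@NP libraries, against 25.7, 27.6 and 26 CPM in the non-SP libraries. The groups did not overlap for these genes. Ccng1 was 2.54-fold higher, Eda2r, a death receptor of the TNF family, 2.88-fold and Fas 4.16-fold. Tigar, a regulator of glycolysis, was the gene that fell (log2 difference -0.38). Sesn2 is on this list and on that of the stress response.

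Regulators of G1 were split, beside 29.1% higher and 27% lower over all tested genes. Of 20 genes 18 could be tested, and 5 rose and 10 fell. The inhibitor gene Cdkn2b had 36.6, 37.4 and 37.7 CPM in the D-gel@NP libraries, against 13.3, 14 and 14.9 CPM in the non-SP libraries, 2.65-fold higher, and Cdkn1b was 1.45-fold higher. Ccne1, the cyclin of S phase entry, had 16.9, 18.6 and 18 CPM in the D-gel@NP libraries, against 46.1, 45.3 and 46.1 CPM in the non-SP libraries, 2.56-fold lower, while Ccnd1 was 1.27-fold higher. The D-gel@NP and non-SP libraries did not overlap for Cdkn2b and Ccne1. Of 19 tested genes of the BCL2 family and its partners 8 rose and 4 fell, 63.2% called beside 56.1% of all tested genes. Of the pro-death BH3-only genes, those higher were Bmf 15.1-fold, Bcl2l11, which encodes BIM, 2.07-fold, Pmaip1 2-fold and Bbc3 1.93-fold, while Bad was lower (log2 difference -0.28) and Bid did not pass (log2 difference 0.01). The pore-forming gene Bak1 had 37.1, 31.7 and 31 CPM in the D-gel@NP libraries, against 76.1, 75.6 and 72.1 CPM in the non-SP libraries, 2.26-fold lower, and Bcl2 was 1.72-fold lower.

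Interferon-stimulated genes were mostly higher. Of 30 tested genes 24 rose and 2 fell, with a median log2 difference of 0.92. Gbp3, a guanylate-binding protein, had 1079.5, 1147 and 1144 CPM in the D-gel@NP libraries, against 424, 425 and 431 CPM in the non-SP libraries, 2.63-fold higher (edgeR adjusted p = 1.22e-16). Usp18, a brake on the interferon receptor, had 67.6, 70.9 and 68.5 CPM in the D-gel@NP libraries, against 26.9, 28.5 and 28.7 CPM in the non-SP libraries, and the antiviral GTPase gene Mx1 had 8.94, 9.58 and 9.12 CPM in the D-gel@NP libraries, against 0.551, 0.512 and 0.557 CPM in the non-SP libraries. The RNA sensor gene Ddx58 was 1.95-fold higher, while the related sensor gene Ifih1 was 1.89-fold lower, and Isg20 fell as well. Irf1 rose 1.84-fold.

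Gbp3 and Ddx58 are named members whose promoters hold the core of the interferon-stimulated response element, GAAANNGAA on either strand, marked in capitals. They lie at chr3:142559794-142560093 (plus strand) and chr4:40239776-40240075 (minus strand) of GRCm38.p6, from RefSeq. Gbp3 has a pair of overlapping matches that start at -44 and -38, and Ddx58 has 1 that starts at position 4.
Gbp3: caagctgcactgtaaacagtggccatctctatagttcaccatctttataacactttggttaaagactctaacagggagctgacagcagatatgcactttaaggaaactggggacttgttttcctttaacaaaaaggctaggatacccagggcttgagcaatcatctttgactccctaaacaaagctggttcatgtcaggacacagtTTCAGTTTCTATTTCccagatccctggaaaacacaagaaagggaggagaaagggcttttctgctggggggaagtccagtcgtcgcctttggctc
Ddx58: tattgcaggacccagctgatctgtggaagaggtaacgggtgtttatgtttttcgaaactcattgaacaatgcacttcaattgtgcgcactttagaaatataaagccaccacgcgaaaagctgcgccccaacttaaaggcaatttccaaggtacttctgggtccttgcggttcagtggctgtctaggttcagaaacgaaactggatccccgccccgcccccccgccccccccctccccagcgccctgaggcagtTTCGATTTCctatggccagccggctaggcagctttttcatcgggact
The core was in 14 of 23 tested list members with a promoter (60.9%), beside 8.75% of tested genes with one and 8.56% of all promoters. Ifih1, which was lower in D-gel@NP, is also among the members that hold the core. The 976 tested genes that hold it had a median log2 difference of 0.09, against 0.01 for the rest.

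Antigen presentation and inflammatory genes were mostly higher as well. Of 15 tested genes of MHC class I presentation, out of 16, 13 rose and 1 fell, with a median log2 difference of 0.65. B2m, the invariant subunit of class I molecules, had 369.6, 348 and 366 CPM in the D-gel@NP libraries, against 218, 216 and 214 CPM in the non-SP libraries, and Tapbp, which loads peptides, was 1.89-fold higher. The immunoproteasome genes Psmb8 (4.47-fold) and Psmb9 (6.15-fold) rose, while Psmb10 was 1.34-fold lower. Of 26 tested NF-kB and inflammatory genes, out of 29, 17 rose and 3 fell, with a median log2 difference of 0.78. The neutrophil chemokine gene Cxcl5 had 235, 199 and 230.1 CPM in the D-gel@NP libraries, against 39.7, 44.2 and 43.3 CPM in the non-SP libraries, 5.22-fold higher (edgeR adjusted p = 4.51e-16), and Cxcl1 had 80.1, 84.7 and 81.5 CPM in the D-gel@NP libraries, against 22.4, 24.8 and 21 CPM in the non-SP libraries. Every D-gel@NP library was above every non-SP library for both. The acute-phase gene Saa3 had 57 counts in D-gel@NP and none in non-SP, at least 22.2-fold higher against a floor of 3 counts over the group. The 3 genes that fell were the subunit genes Nfkb1, Nfkb2 and Rela, with log2 differences of -0.66, -0.27 and -0.22.

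Macrophage and microglia markers moved with these lists at low levels, and T and NK cell markers did not. Of 17 macrophage and microglia markers 10 could be tested, and 8 rose and none fell, with 1 fall without D-gel@NP 2. Their summed level was 57.06 to 66.42 CPM in the D-gel@NP libraries, against 21.33 to 22.83 CPM in the non-SP libraries. Csf1r, the receptor for colony stimulating factor, had 15, 17 and 18.6 CPM in the D-gel@NP libraries, against 1.75, 2.41 and 3.22 CPM in the non-SP libraries, and Cd68 had 13.7, 17.8 and 17.4 CPM in the D-gel@NP libraries, against 7.14, 6.35 and 6.03 CPM in the non-SP libraries. Adgre1, which encodes F4/80, had 32 counts in D-gel@NP and 0 in non-SP, and the leukocyte gene Ptprc averaged 0.32 ± 0.153 CPM in D-gel@NP and 0.024 ± 0.0415 CPM in non-SP (SD, n = 3 each). T and NK cell markers summed to 1.371 to 2.675 CPM in D-gel@NP and 2.253 to 3.115 CPM in non-SP, with 2 of 11 tested. Of those 2 markers, 1 was higher and 1 lower. The part of such cells in the interferon, antigen presentation and inflammatory results was not tested. At least 1 CPM in 3 libraries or thinning each library to 16.6 M counts left 5 macrophage markers called higher.

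**Figure D3:**
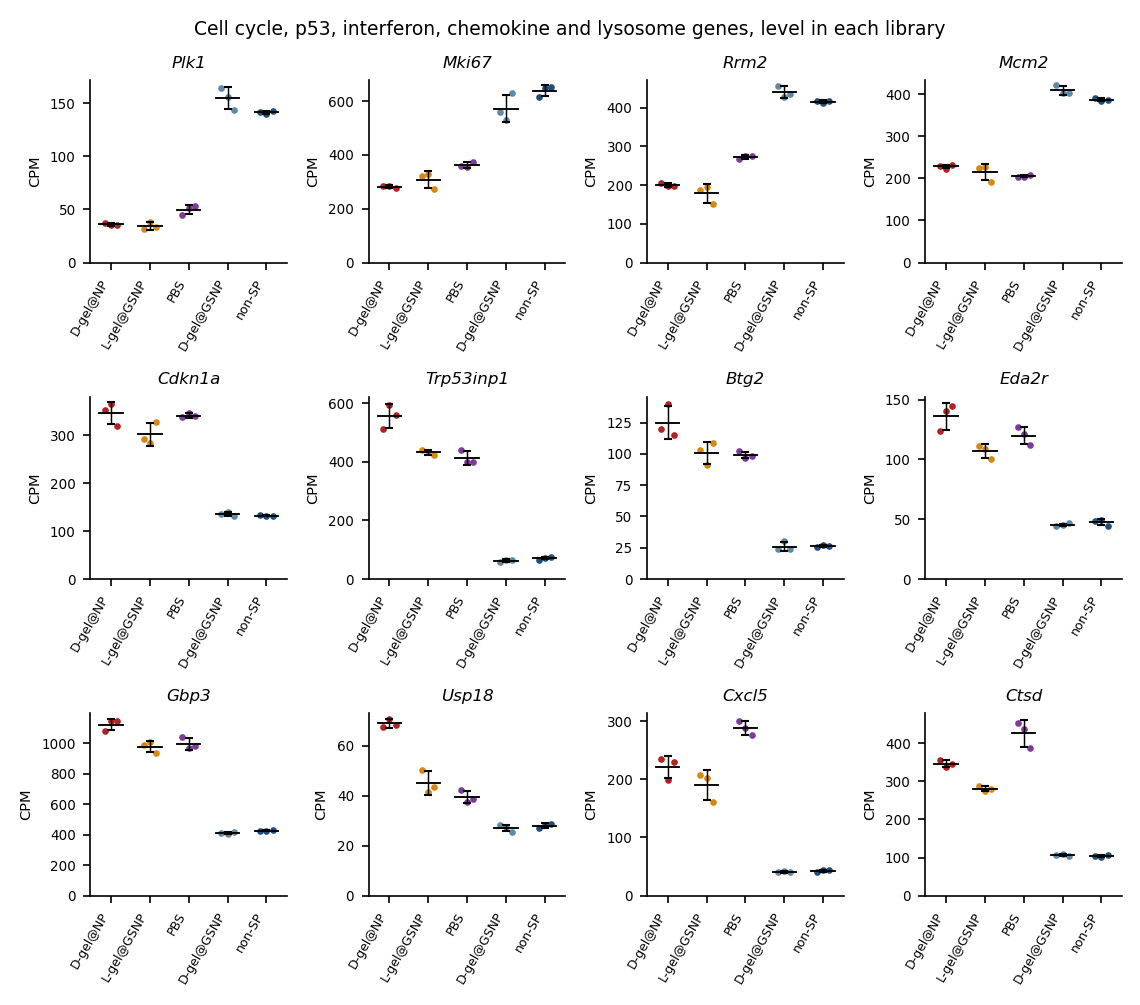
Level in CPM (vertical axes, from 0) of 12 genes of the cell cycle, p53 targets, interferon response, chemokines and lysosome in each library, by group along the horizontal axes. Points are libraries and bars the mean ± SD (n = 3); Plk1, Mki67, Rrm2 and Mcm2 are lower and the other 8 genes higher in D-gel@NP than in non-SP.

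Lysosomal and autophagy genes were higher. Of 26 tested genes 22 rose and 2 fell, with a median log2 difference of 0.44. Ctsd, the protease cathepsin D, had 356, 339 and 347 CPM in the D-gel@NP libraries, against 103, 101 and 106 CPM in the non-SP libraries, 3.36-fold higher (edgeR adjusted p = 6.76e-17). Sqstm1, the autophagy receptor p62, had 804, 767 and 813 CPM in the D-gel@NP libraries, against 283, 287 and 285 CPM in the non-SP libraries, and Gabarapl1, which coats autophagosomes, was 3.4-fold higher. The transcription factor gene Tfeb, a regulator of lysosomal genes, was 2.14-fold lower at 9.9 ± 0.34 CPM in D-gel@NP and 21.2 ± 1.12 CPM in non-SP (SD, n = 3 each), and Ctsz was 1.27-fold lower. The CLEAR letters TCACGTGAC, read by factors of the TFEB family, were in 5 of 21 list members with a promoter (23.8%) and in 1.72% of tested genes. The Ctsd promoter at chr7:142387778-142388077 (minus strand, GRCm38.p6, RefSeq) is shown for the largest fold among those 5, with the match in capitals from position -99.
Ctsd: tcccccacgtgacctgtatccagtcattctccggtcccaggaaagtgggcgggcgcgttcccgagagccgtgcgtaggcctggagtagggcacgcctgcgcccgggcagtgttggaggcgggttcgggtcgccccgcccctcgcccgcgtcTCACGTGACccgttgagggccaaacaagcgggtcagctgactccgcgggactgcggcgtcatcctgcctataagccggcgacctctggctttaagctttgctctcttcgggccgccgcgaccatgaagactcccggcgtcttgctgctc
The 192 tested genes with the letters had a median log2 difference of 0.10, against 0.02 without them.

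Sterol synthesis genes were mostly higher than in non-SP. Of 24 tested genes 15 rose and 3 fell, with a median log2 difference of 0.53. Msmo1, a sterol oxidase, had 128, 142 and 127 CPM in the D-gel@NP libraries, against 49.5, 52 and 51.8 CPM in the non-SP libraries, 2.6-fold higher (edgeR adjusted p = 3.86e-14). Insig1, the feedback protein of the pathway, was 2.77-fold, Fdft1, squalene synthase, 2.35-fold and Hmgcs1 2.1-fold higher. The kinase gene Mvk was among those that fell (log2 difference -0.72). Among 15 fatty acid genes 8 rose and 6 fell, beside 29.1% higher and 27% lower over all tested genes. The desaturase gene Scd1 had 560.3, 602 and 541 CPM in the D-gel@NP libraries, against 289, 295 and 299 CPM in the non-SP libraries, whereas Fasn was 1.44-fold lower and Me1, a source of NADPH, 1.9-fold lower.

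Ribosomal proteins and the factors that assemble ribosomes went apart. Of 30 cytosolic ribosomal protein genes 20 rose and 3 fell, with a median log2 difference of only 0.18. The number that rose was 13 without D-gel@NP 3, and the number that fell was 1 without D-gel@NP 2 or with upper-quartile factors. Rps3 had 1441, 1331 and 1482 CPM in the D-gel@NP libraries, against 1119.8, 1106 and 1087 CPM in the non-SP libraries, and Rps2, the largest exception, was 1.5-fold lower. Ribosomal protein genes have many near-identical pseudogenes, and how reads shared with them were counted is not stated. Of 25 nucleolar and biogenesis genes 21 fell and 1 rose, with a median of -0.50. Mybbp1a, a nucleolar protein, had 335, 307 and 292 CPM in the D-gel@NP libraries, against 668, 665 and 689 CPM in the non-SP libraries, 2.17-fold lower (edgeR adjusted p = 3.22e-13), and the RNA polymerase I subunit genes Polr1b and Polr1a were 2.34-fold and 1.75-fold lower. The 1 biogenesis gene higher was Nop14, which passed in none of 4 fits that each left out 1 library, those without D-gel@NP 1, non-SP 1, non-SP 2 or non-SP 3.

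Mitochondrial genes differed by genome. All 13 tested genes that the mitochondrial genome encodes rose, with a median log2 difference of 0.79. The complex I gene mt-Nd2 had 5215, 4986 and 5438 CPM in the D-gel@NP libraries, against 2569, 2700.5 and 2611 CPM in the non-SP libraries, 1.99-fold higher (edgeR adjusted p = 2.68e-11), and mt-Co1 had 17419.7, 17065 and 18479 CPM in the D-gel@NP libraries, against 10748, 11325 and 10988 CPM in the non-SP libraries. By FPKM, which the authors scaled by gene length, mt-Co1 was the highest gene in D-gel@NP at 11531 FPKM on average. Of 25 nuclear genes of the respiratory chain 16 fell and 1 rose, with a median of -0.28, and none rose without D-gel@NP 3, non-SP 1 or non-SP 2. Uqcrc1, a core subunit of complex III, had 88.4, 84.4 and 85.8 CPM in the D-gel@NP libraries, against 171, 167 and 168 CPM in the non-SP libraries, 1.96-fold lower, and the ATP synthase gene Atp5a1 was 1.55-fold lower. Of 22 proteasome subunits 20 fell and none rose, with a median of -0.44, among them Psmb7 (1.67-fold lower) and Psmd1 (1.49-fold lower).

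Chaperone and redox genes gave mixed pictures, beside 29.1% higher and 27% lower over all tested genes. Of 20 ER chaperones and genes of the unfolded protein response 12 rose and 3 fell, and 1 fell without D-gel@NP 1, D-gel@NP 3, non-SP 1 or non-SP 2. Xbp1, the transcription factor spliced by IRE1, had 142, 131 and 137 CPM in the D-gel@NP libraries, against 40.2, 41.6 and 39.3 CPM in the non-SP libraries, 3.38-fold higher, Herpud1, of ER-associated degradation, was 3.02-fold and Dnajb9 3.29-fold higher. Hspa5, the main ER chaperone, was 1.4-fold higher. Of 14 tested heat shock genes, out of 17, 10 fell and 2 rose. The mitochondrial chaperonin gene Hspd1 had 1053, 979 and 1013 CPM in the D-gel@NP libraries, against 1662, 1711 and 1676 CPM in the non-SP libraries, 1.66-fold lower, and Bag3 was 1.89-fold lower. Of 20 NRF2 targets 11 fell and 5 rose, and with upper-quartile scaling 7 fell. The oxidative stress factor gene Nfe2l2 itself was 1.64-fold higher, while ferritin heavy chain, Fth1, was 1.49-fold lower.

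Hypoxia and glycolysis genes were split, with 57.7% called, near the 56.1% of all tested genes. Of 26 tested genes, out of 28, 10 fell and 5 rose, with a median log2 difference of -0.16. Vegfa, the angiogenic factor, had 153, 129 and 128 CPM in the D-gel@NP libraries, against 26.5, 33 and 34.4 CPM in the non-SP libraries, 4.36-fold higher (edgeR adjusted p = 5.5e-11). P4ha1, which hydroxylates collagen, was 2.09-fold and Ndrg1 2.79-fold higher, and the mitophagy gene Bnip3 had 31.7, 19.1 and 26.3 CPM in the D-gel@NP libraries, against 9.27, 12.8 and 14 CPM in the non-SP libraries. Eno1, Ldha, Pgk1 and Tpi1 were 1.27-fold, 1.34-fold, 1.19-fold and 1.22-fold lower. Gapdh had 44.4, 86.4 and 356 CPM in the D-gel@NP libraries, against 77.6, 367 and 417 CPM in the non-SP libraries. The spread within each group was wide, and Gapdh did not pass (edgeR adjusted p = 0.25). How reads shared between copies of a gene were counted is not stated, so the Gapdh level is uncertain. The cause of the spread was not tested.

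Signalling genes changed by pathway, and several of the counts were not far from the shares over all tested genes, 29.1% higher and 27% lower. Of 24 tested immediate early and ERK feedback genes, out of 26, 14 rose and 4 fell. Fos had 40.8, 36.4 and 27.2 CPM in the D-gel@NP libraries, against 3.5, 2.46 and 2.83 CPM in the non-SP libraries, 11.7-fold higher, and the phosphatase gene Dusp1 had 57.7, 69.7 and 60.2 CPM in the D-gel@NP libraries, against 14.8, 14.5 and 15 CPM in the non-SP libraries. The ERK feedback genes Spry4, Spred2, Etv4 and Etv5 were those that fell. Of 13 tested Wnt targets, out of 15, 8 fell and 1 rose, and 2 rose without D-gel@NP 1 or D-gel@NP 3. The Wnt feedback gene Nkd1 had 154, 159 and 154 CPM in the D-gel@NP libraries, against 332, 314 and 332 CPM in the non-SP libraries, 2.09-fold lower, and Tcf7 was 2.15-fold lower, while Lgr5 had 246 ± 12.6 CPM in D-gel@NP and 246 ± 6.51 CPM in non-SP (SD, n = 3 each). The 4 tested hedgehog genes, of 11, all fell, Gli1 most and Ptch1 least (1.3-fold). Of 19 tested TGF-beta and BMP genes, out of 20, 7 rose and 6 fell, 68.4% called beside 56.1% of all tested genes. Tgfbi, a secreted TGF-beta target, had 38.3, 40.5 and 29 CPM in the D-gel@NP libraries, against 4.15, 3.97 and 3.46 CPM in the non-SP libraries, 9.28-fold higher, and the BMP decoy receptor gene Bambi 8.99-fold. Of 17 tested gp130 and STAT3 genes, out of 18, 7 rose and 2 fell, with the kinase gene Pim1 2.06-fold and the oncostatin receptor gene Osmr 2.48-fold higher. The 2 falls were those of Il6ra and Cish, and 1 fall was left without any 1 library other than non-SP 2. Of 14 YAP and TAZ targets 6 fell and 3 rose, with Lats2 1.92-fold lower. Of 9 tested Notch genes, out of 15, 4 rose and 2 fell, with the coactivator gene Maml2 3.59-fold higher.

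Matrix, adhesion and surface genes went both ways, beside 29.1% higher and 27% lower over all tested genes. Of 24 tested collagen and matrix genes, out of 28, 9 rose and 9 fell. Col6a1 had 108, 113 and 109 CPM in the D-gel@NP libraries, against 16.2, 16.2 and 18.2 CPM in the non-SP libraries, 6.55-fold higher, in contrast to Col1a1 above, and Col4a1 was 1.69-fold and Sparc 1.68-fold lower. Of 20 tested integrin, focal adhesion and actin genes, out of 23, 10 fell and 3 rose. Itga2, a collagen receptor, had 92.1, 102 and 103 CPM in the D-gel@NP libraries, against 30.9, 31.4 and 31.5 CPM in the non-SP libraries, and the fibronectin receptor gene Itga5 was 2.18-fold lower. Of 15 tested genes of the epithelial to mesenchymal transition, out of 18, 8 rose and 2 fell, and 1 fell without D-gel@NP 3. The epithelial genes Krt19 (1.69-fold), Cldn4 (1.96-fold) and Epcam (1.8-fold) were higher, and so was the mesenchymal repressor gene Zeb1 (1.32-fold). Of 17 tested receptor tyrosine kinases and ligands, out of 24, 10 rose and 4 fell, with Pdgfa 2.31-fold and Egfr 2.12-fold higher and Met 1.45-fold lower. Of 10 tested checkpoint ligands and immune regulators, out of 15, 5 rose and 4 fell. Cd80, a ligand of T cells, had 13.7, 20.1 and 16.4 CPM in the D-gel@NP libraries, against 1.68, 2.13 and 1.94 CPM in the non-SP libraries, 8.84-fold higher, and Cd276 was 1.81-fold lower.

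Stem-like markers did not move as 1 group, beside 29.1% higher and 27% lower over all tested genes. Of 20 markers on the list 19 are in the count table and 10 could be tested, of which 3 rose and 5 fell, with a median log2 difference of -0.21. Cd44, an adhesion receptor, had 948, 897 and 949.6 CPM in the D-gel@NP libraries, against 517, 522 and 529 CPM in the non-SP libraries, 1.78-fold higher (edgeR adjusted p = 4.64e-13), and Klf4 was 1.55-fold higher. Nes, the intermediate filament nestin, had 1.31, 1.39 and 2 CPM in the D-gel@NP libraries, against 3.52, 3.76 and 3.8 CPM in the non-SP libraries, 2.31-fold lower, and the chromatin methylase gene Ezh2 1.58-fold lower. The groups did not overlap for Cd44 and Nes. Myc had 208, 234 and 207 CPM in the D-gel@NP libraries, against 193, 195 and 197 CPM in the non-SP libraries, just short of the threshold (edgeR adjusted p = 0.0504), and passed it under several alternatives, among them DESeq2 (adjusted p = 0.0393). Of 12 efflux pumps 8 rose and 3 fell, with Abcg1, a cholesterol exporter, 3.07-fold, Abcc5 1.54-fold and Abcc2 1.53-fold higher.

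Glial, iron and chromatin genes complete the lists, beside 29.1% higher and 27% lower over all tested genes. Of 10 tested astrocyte genes, out of 12, 8 rose and none fell, with a median log2 difference of 1.45 and a summed level of 1048 to 1124 CPM in D-gel@NP, against 613.4 to 623.3 CPM in non-SP. Apoe, a lipid carrier, had 135, 143 and 136 CPM in the D-gel@NP libraries, against 26.9, 25.8 and 28.7 CPM in the non-SP libraries, 5.08-fold higher, and the glutamate transporter gene Slc1a2 had 19.1, 22.5 and 21.4 CPM in the D-gel@NP libraries, against 1.46, 1.59 and 2.01 CPM in the non-SP libraries. Of 14 tested iron genes, out of 15, 7 rose and 3 fell, among them Cp, ceruloplasmin, at 65.3, 60.9 and 68.9 CPM in the D-gel@NP libraries, against 9.37, 12 and 9.81 CPM in the non-SP libraries, and Trf, transferrin, 2.14-fold higher. The metallothionein gene Mt1 was 1.43-fold higher, with 2 of 5 metal genes higher and 1 lower, and 1 higher without D-gel@NP 2 or non-SP 1. With no filter or with the replicate block 2 metal genes were lower. Of 20 tested chromatin and histone genes, out of 21, 11 fell and 6 rose. Dnmt1, which maintains DNA methylation, had 323, 327 and 304 CPM in the D-gel@NP libraries, against 629, 619 and 628 CPM in the non-SP libraries, 1.97-fold lower, whereas the linker histone gene Hist1h1c had 146, 118 and 129 CPM in the D-gel@NP libraries, against 14.9, 13.3 and 16.5 CPM in the non-SP libraries, 8.79-fold higher.

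Markers of other tissues were scarce apart from a few genes. Fibroblast and pericyte markers summed to 1459 to 1515 CPM in D-gel@NP and 695.1 to 722.3 CPM in non-SP, nearly all of it Dcn, a proteoglycan, which had 1465, 1421 and 1486 CPM in the D-gel@NP libraries, against 646, 675 and 665 CPM in the non-SP libraries. Endothelial markers summed to 11.62 to 15.68 CPM in D-gel@NP and 6.786 to 7.507 CPM in non-SP, and neuron markers to 4.409 to 4.525 CPM in D-gel@NP and 0.7188 to 1.066 CPM in non-SP. Oligodendrocyte markers summed to 18.72 to 34.49 CPM in D-gel@NP and 37.72 to 41.24 CPM in non-SP. Red cell markers reached at most 0.5068 CPM in D-gel@NP and 0.9687 CPM in non-SP.

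**Figure D4:**
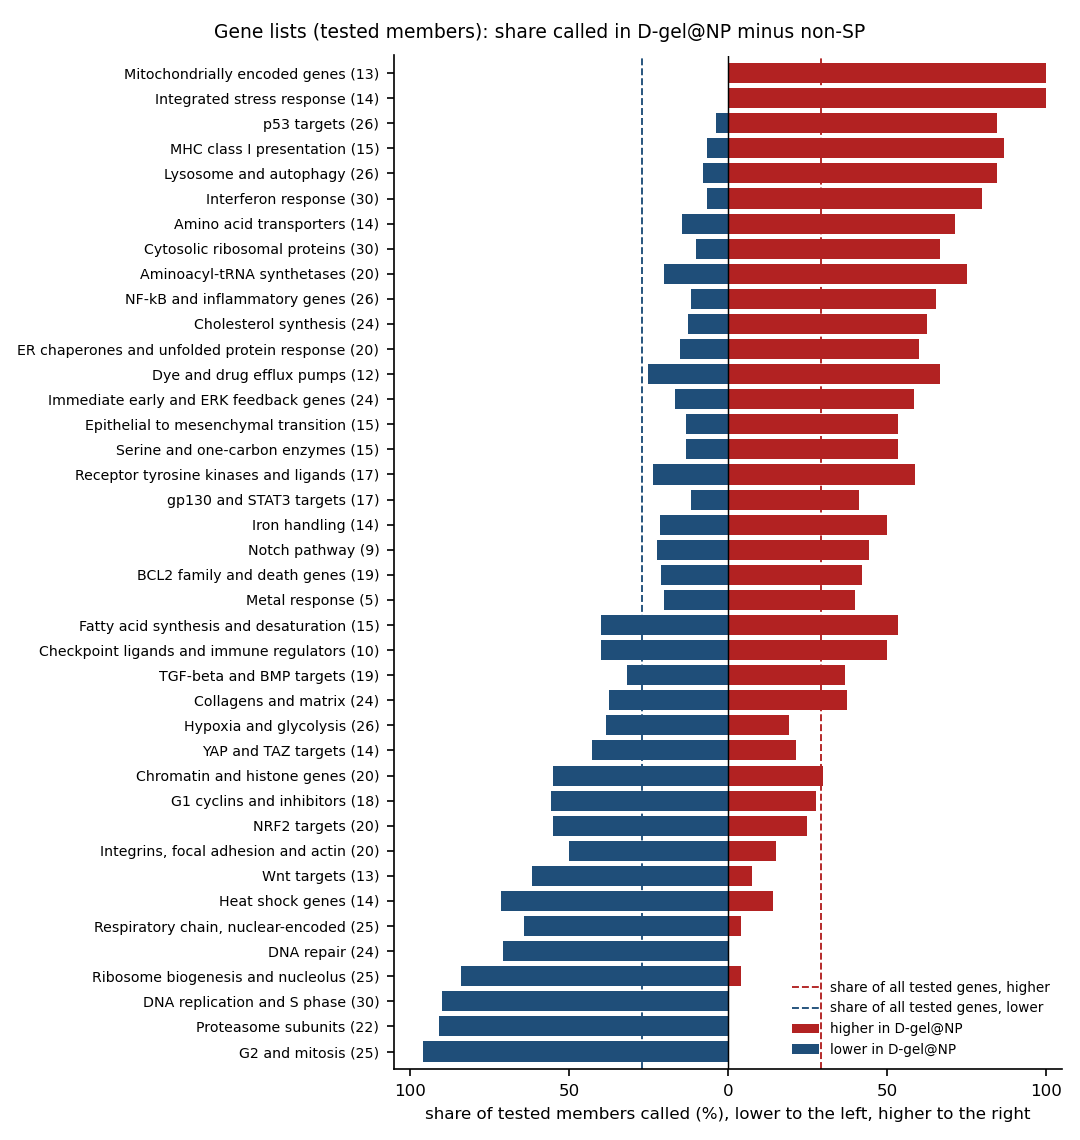
Share of the tested members of each gene list with at least 5 of them, marker lists aside (rows, number tested in brackets) that were called lower (left of 0, in %) or higher (right of 0, in %) in D-gel@NP than in non-SP. Dashed lines give the shares over all tested genes, 27% lower and 29.1% higher; the stress response and mitochondrially encoded genes reach 100% higher, and G2 and mitosis, proteasome and replication genes have the longest bars to the left.

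Set against PBS, whose cells had the same label and cytokines but no gel, D-gel@NP differed in fewer genes. By edgeR's test 2479 genes were higher (14.2%) and 2848 lower (16.3%), 30.4% in all, of which 493 were at least 2-fold higher (2.82%) and 184 at least 2-fold lower (1.05%). This comparison and the one with non-SP share the D-gel@NP libraries. Stress response and amino acid genes were higher than in PBS, with 12 of 14 stress genes, 11 of 15 serine and one-carbon enzymes and 15 of 20 synthetases called higher and 0, 1 and 3 called lower. Trib3 stood at 74 CPM in D-gel@NP and 8.33 CPM in PBS (log2 difference 3.14, edgeR adjusted p = 4.32e-12). Slc7a5, lower than in non-SP, was higher than in PBS, at 104, 87.2 and 99.7 CPM in D-gel@NP against 21.3, 24.8 and 31 CPM in PBS (log2 difference 1.91, edgeR adjusted p = 1.41e-12). Of 30 ribosomal protein genes 29 were higher and none lower.

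Sterol and lysosome genes were mostly lower than in PBS. Of 24 sterol genes none was higher and 22 were lower than in PBS, and of 26 lysosome and autophagy genes 2 were higher and 17 lower. Msmo1 averaged 132 CPM in D-gel@NP, 170.5 CPM in PBS and 51.1 CPM in non-SP. Ctsd averaged 347 CPM in D-gel@NP, 427 CPM in PBS and 103 CPM in non-SP. Mitosis genes were mostly lower than in PBS as well, with 21 of 25 called lower and none higher. Plk1 averaged 36 CPM in D-gel@NP and 49.9 CPM in PBS (log2 difference -0.48, edgeR adjusted p = 3.97e-05). Of 26 p53 targets 10 were higher and 4 lower, and Cdkn1a differed by only 0.02 (edgeR adjusted p = 0.829). Among called genes of at least 10 CPM whose libraries did not overlap, the largest falls against PBS were those of the membrane protease gene Tmprss11b, the cornified envelope gene Sprr1b and Pilra, with log2 differences of -2.49, -2.36 and -1.59. Only the gel groups had the ice step, so the gel, its load and the ice cannot be told apart here.

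L-gel@GSNP, which differs in the chiral form of the gel and in its load, was the group nearest to D-gel@NP by the range of library distances (73.4 to 100.7, beside 83.5 to 110.2 for PBS). The comparison called 1948 genes higher (11.1%) and 1457 lower (8.33%), 19.5% in all, of which 107 were at least 2-fold higher (0.612%) and 211 at least 2-fold lower (1.21%). Hypoxia and glycolysis genes were mostly lower, with 1 of 26 higher and 21 lower, a median log2 difference of -0.70 beside 0.01 over all tested genes. Bnip3 had 31.7, 19.1 and 26.3 CPM in D-gel@NP, against 119.6, 74.6 and 154 CPM in L-gel@GSNP (log2 difference -2.20, edgeR adjusted p = 3.74e-07). Pgk1 averaged 605 CPM in D-gel@NP and 1195 CPM in L-gel@GSNP. Sterol genes were higher, with 20 of 24 and none lower, and so were lysosome genes, with 16 of 26 and none lower. Gpnmb, a glycoprotein of lysosomes and melanosomes, had 418, 456 and 392 CPM in D-gel@NP, against 115, 129 and 131 CPM in L-gel@GSNP (log2 difference 1.76, edgeR adjusted p = 3.51e-14). The stress response was somewhat stronger, with 8 of 14 genes higher and none lower, although Trib3 and Atp2a3 did not pass (log2 difference 0.22 and 0.25, edgeR adjusted p = 0.313 and 0.434). Tmprss6 and Lcn2, genes of iron handling, were lower, with log2 differences of -1.04 and -1.79.

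**Figure D5:**
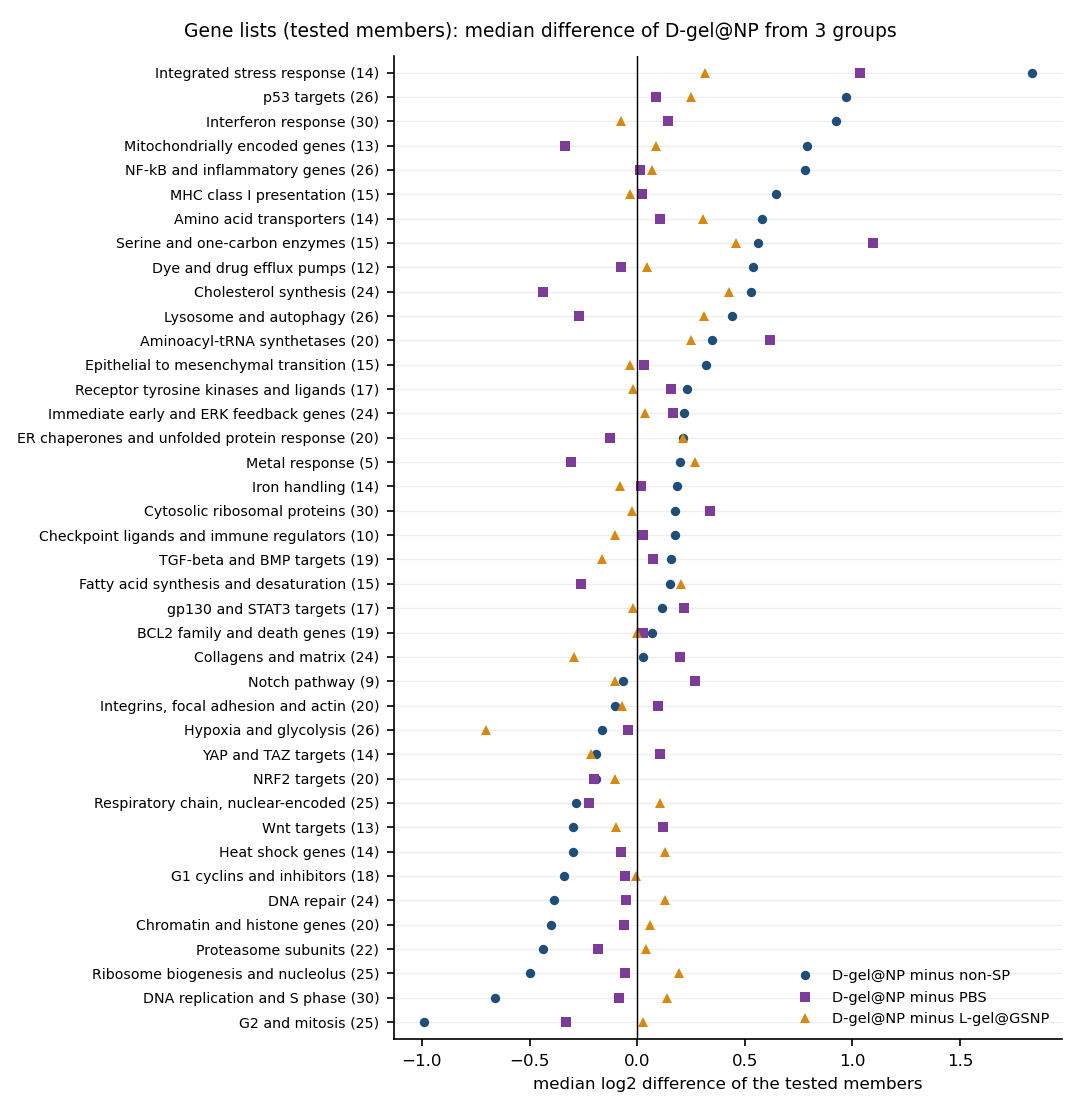
Median log2 difference of the tested members of each gene list with at least 5 of them, marker lists aside (rows, number tested in brackets) of D-gel@NP minus non-SP, minus PBS and minus L-gel@GSNP. The stress response lies at 1.83, 1.03 and 0.32, sterol synthesis at 0.53, -0.44 and 0.43, and hypoxia and glycolysis at -0.16, -0.04 and -0.70.

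The D-gel@GSNP group, which had the same D form of gel and the other load, was not compared by a test here. Its levels are given beside those of D-gel@NP. Trib3 averaged 74 CPM in D-gel@NP and 3.28 CPM in D-gel@GSNP, and Nupr1 114 CPM in D-gel@NP and 4.22 CPM in D-gel@GSNP. Plk1 averaged 36 CPM in D-gel@NP and 155 CPM in D-gel@GSNP, and Cdkn1a 346 CPM in D-gel@NP and 136 CPM in D-gel@GSNP. Distances of D-gel@NP libraries to those of D-gel@GSNP were 128.7 to 145.9.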

How the data were processed

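RNA of the 15 libraries was sequenced by the authors, and they deposited 1 table of read counts per gene for all libraries and a table of FPKM values for each library. Per the submitters' processing notes, fastp 0.22.0, HISAT2 2.1.0, featureCounts, DESeq2 and GRCm39 were used; strand setting, multimapping and annotation release are not given in the sources used here, so genes with near-identical copies, overlapping or antisense genes are uncertain. Deposited FPKM served for levels by gene length and for alternatives. Among counts of 1 to 20, 62.32% to 66.44% were even in every library, and the cause was not tested. From the counts, edgeR 4.0.16 (R 4.3.3; filterByExpr, TMM, quasi-likelihood test with Benjamini-Hochberg adjustment, threshold 0.05, 95% intervals) was fitted to all 15 libraries, which share 1 estimate of spread; 17497 of 34259 genes passed the filter. The test was also tried on counts simulated from its fit to these data, and the outcome is not reported here. Intervals of ratios of counts cover counting error only and take counts as independent. Whether the excess of even counts makes them too narrow was not tested.

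The comparison and the 50 gene lists were chosen with earlier results of these data known. The lists hold 913 distinct symbols, and 885 distinct genes of the count table match them. Named by rule were the 12 largest rises and falls against non-SP (and 6 each against PBS and L-gel@GSNP) among called genes of at least 10 CPM without overlap, the 4 lowest adjusted p of each list with at least 5 tested members, a fixed panel, and the 8 highest FPKM; other list members were chosen after their values were seen, and some named by the rule are not reported here. Alternatives were RLE and upper-quartile factors, other filters, DESeq2 1.42.0, limma 3.58.1 on log2(FPKM + 1) and log2(FPKM + 0.1), thinning to 16.6 M counts, no mitochondrial genes, only 6 libraries, a replicate block, and leaving out each library. Replicate numbers are not stated to pair libraries. Promoters are RefSeq's on GRCm38.p6, 300 bases each.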

Additional observations from a re-analysis of the deposited data

How the results depend on the processing

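The 5098 rises and 4725 falls against non-SP stayed within 1.5 times under every alternative tried, and without 1 library they ran from 4679 to 5005 and from 4316 to 4460. At least 2-fold, limma on log2(FPKM + 1) called 457 higher and 194 lower, and 460 and 194 with no filter; the added 1 shrinks folds of low genes. Without 1 library these counts ran from 1909 to 2005 and from 629 to 688. With only the 6 libraries compared they were 1660 and 609, and with at least 1 CPM in 3 libraries 1357 and 451. Against PBS, rises ran from 1994 to 2387 and falls from 2187 to 2672 without 1 library. Against L-gel@GSNP they ran from 1511 to 1783 and from 1083 to 1260, and 1298 genes were higher with only the 6 libraries compared and 1163 with the replicate block. With that block, 4785 genes were higher and 4704 lower than in non-SP. Deviations of same-numbered libraries from their group means correlated at -0.006, 0.005 and 0.015 over all tested genes. Counting noise of low genes adds to such deviations, so these values show no pairing by number but cannot exclude one. Upper-quartile factors gave 6016 higher and 3859 lower than in non-SP, with a median log2 difference of 0.13 over all genes. With these factors 2974 genes were higher and 2221 lower than in PBS, and 1645 higher and 1720 lower than in L-gel@GSNP. Which side was larger against PBS and L-gel@GSNP thus depended on the scaling. Counts of gene list members stayed within 1.5 times in 1696 cases and moved further in 104. Named genes kept their call in 3875 cases, gained it in 26, lost it in 8 (Npnt and Slc39a10) and turned in 6, all of Sprr1b. Its uncalled log2 difference of 0.11 to non-SP was -0.03 with the replicate block, -0.10 with limma on log2(FPKM + 1), with or without the filter, and -0.15 with log2(FPKM + 0.1). It ran from -0.11 to 0.42 without 1 library. The cause was not tested. Depth limits rare transcripts such as Prom1, and D-gel@NP 1 is the shallowest library.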

Other observations

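Among long intergenic non-coding RNAs, and in some other classes besides protein-coding genes, few were lower in D-gel@NP than in non-SP. Of 741 tested lincRNA genes 211 were higher (28.5%) and 57 lower (7.69%) by edgeR's test, with a median log2 difference of 0.36. Of 13045 protein-coding genes 4306 were higher (33%) and 4281 lower (32.8%), with a median of 0.02. Over all tested genes 29.1% were higher and 27% lower. Of 616 antisense genes 18.5% were higher and 7.95% lower, and of 280 processed transcripts 23.2% and 11.8%. Of 493 genes of the class TEC 19.5% were higher and 5.48% lower, so this skew was not particular to lincRNA. Of 1359 processed pseudogenes 125 were higher (9.2%) and 186 lower (13.7%). The filter used all 15 libraries, so a scarce gene could pass it only through groups where its level was high. Of the tested genes, 93 had no count in non-SP and 7 had none in D-gel@NP. The part of the filter and of low levels in the skew between classes was not tested. Some list members had no count in non-SP. These were Saa3, Abcb4, Adgre1, Cd2 and Syt1, at least 22.2-fold, 7.87-fold, 13.7-fold, 17.3-fold and 6.04-fold higher against 3 counts over the group.

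Genes on chromosomes 1 and 6 had higher medians than those on the other nuclear chromosomes. The median log2 difference of D-gel@NP to non-SP was 0.14 on chromosome 1 (35.2% of 1137 tested genes higher, 19.3% lower) and 0.16 on chromosome 6 (37.1% of 878 higher, 21.8% lower), against -0.05 to 0.08 on the others. From group mean levels, the medians of L-gel@GSNP against non-SP were 0.15 and 0.12 on these chromosomes and those of PBS against non-SP 0.04 and 0.03. The 3 differences share the non-SP libraries. Copy number was not tested.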
